A study of Mus musculus with 6 samples.

Results

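The 38 genes described here make up the NRF2 pathway, the glutathione transferases and the enzymes that remove peroxides and superoxide. They were taken by gene symbol from a table of 56691 genes, and each symbol matched 1 row. By role, 2 are the transcription factor and its sensor (Nfe2l2 and Keap1), 15 are NRF2 targets outside the enzyme families, 10 are glutathione transferases and 11 are peroxide enzymes, counted here with superoxide dismutase and thioredoxin. RNA was measured in the mouse mammary carcinoma line 4T1 after 4 h in medium with vehicle (3 libraries) or with KIRA6 at 1 µmol/L (3 libraries). KIRA6 is a small molecule made to bind the kinase domain of IRE1α, a stress sensor in the endoplasmic reticulum membrane. Neither group carries a genetic change that the labels name, the solvent of the vehicle is not given, and the labels do not say whether each library is a culture of its own. The p-values therefore cover the spread between these libraries, which may be technical.

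NRF2, the product of Nfe2l2, is a transcription factor that KEAP1 holds in the cytosol and sends to the proteasome. Oxidants and electrophiles modify cysteines of KEAP1, NRF2 then escapes degradation, and with a small MAF protein it binds antioxidant response elements near genes for glutathione synthesis, quinone reduction, heme breakdown and iron storage. Glutathione transferases couple glutathione to electrophiles. Catalase, glutathione peroxidases and peroxiredoxins break down peroxides. Since NRF2 is set mainly by the stability of its protein, the level of its messenger RNA (mRNA) is only one side of its state, and no protein was measured here.

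Levels are given in FPKM, fragments scaled to the exonic length of a gene and to all assigned fragments of its library, so genes can be compared per length. Differences are log2 fold changes of FPKM + 0.5 for KIRA6 against vehicle, with the standard error (SE) and the Benjamini-Hochberg adjusted p of limma over 11778 tested genes. A gene was called at an adjusted p below 0.05. The libraries held 16498100 to 21348750 estimated fragments assigned to genes. Vehicle library 3 and KIRA6 library 1 stood apart from the rest of their groups on the second principal component, which held 35.1% of the variance. Transcripts of the mitochondrial genome made up 1.75% to 2.03% of vehicle fragments and 2.66% to 3.25% of KIRA6 fragments. The summed level of 8 epithelial markers was 1376 to 1517 FPKM for vehicle and 1716 to 1831 FPKM for KIRA6, with Krt5 at 0 throughout, and Epcam, Krt14 and Krt19 were called higher. Krt18 was lower in every KIRA6 library without being called, at 574 to 631 FPKM with vehicle and 473 to 545 FPKM with KIRA6 (log2 fold change −0.26). Leukocyte markers summed to 1.78 to 3.02 and 3.91 to 4.34 FPKM, with Cd3e at 0, and fibroblast markers to 0.44 to 0.77 and 1.91 to 3.78 FPKM, with Lum at 0. The 1 tested gene of each of these lists was called higher, Cd68 with a log2 fold change of 0.66 (limma adjusted p = 0.0473) and Pdgfra with 1.62 (limma adjusted p = 0.00611). The 3 endothelial markers summed to 0.06 FPKM or less, and both adipocyte markers were at 0. The part of these shifts in the results was not tested, and in bulk RNA fewer cells of a kind and less RNA per cell cannot be told apart.

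Of the 38 genes, 37 reached the mean of 0.5 FPKM needed for a test, and 12 rose and 2 fell with KIRA6. Among all tested genes 15.6% were called higher and 7.98% lower. Of the 10 glutathione transferases 6 rose and none was called lower, with a median log2 fold change of 0.76. Mgst2, 1 of these 6, reached the mean of 0.5 FPKM only through the KIRA6 libraries, at 0.41 FPKM with vehicle and 0.92 FPKM with KIRA6. Limma-voom on estimated fragments called 5 transferases higher and 0 lower, beside 1910 genes higher and 940 lower among the 11778 tested. At an unadjusted p below 0.05, limma had 7 transferases higher and 1 lower. The share of all tested genes at that unadjusted threshold was not counted, so these counts cannot be set against a background. Of the 14 tested NRF2 targets 4 rose and 1 fell, with a median of 0.32. Among the 11 peroxide enzymes 1 rose and 1 fell, with a median of 0.12. All tested genes had a median of 0.16, and no test of the difference between the role groups was made.

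The count of calls moved with the scaling between libraries. With median-ratio scaling, which puts the median of all genes at −0.01, 8 members were called higher and 4 lower, against a background of 10.9% higher and 12.2% lower. The transferases then had 4 higher and 1 lower, the NRF2 targets 3 and 2, and the peroxide enzymes 1 and 1. Without Vehicle library 3 and KIRA6 library 1, 15 members were called higher and 7 lower, against a background of 35.7% higher and 20.1% lower, with 6 higher and 1 lower among the transferases, 6 and 2 among the NRF2 targets and 1 and 4 among the peroxide enzymes. The levels of all 3 KIRA6 libraries lay above all 3 vehicle libraries for 18 members and below them for 3. Over all tested genes 27.7% lay above and 14.1% below. The calls of 7 members held in every one of the settings run: Hmox1, Ftl1, Osgin1, Gsta4, Mgst1, Mgst3 and Cat. The other 7 called members each lost the call in at least 1 of up to 20 settings, and none of the 14 called members changed sign.

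**Figure D1:**
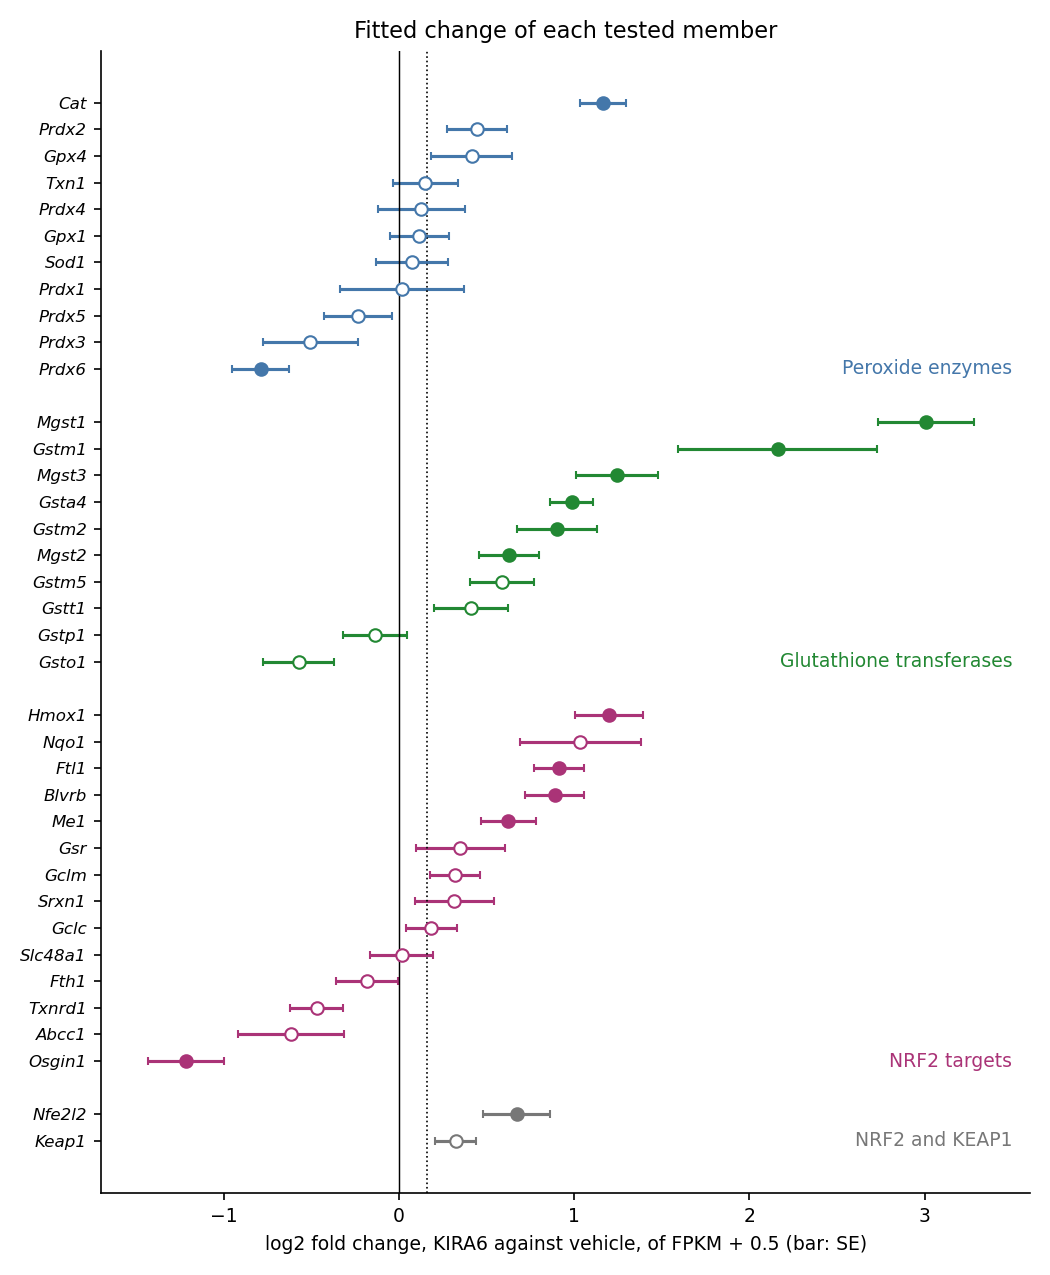
Log2 fold change (KIRA6 against vehicle, FPKM + 0.5) of the 37 tested members, with the SE as a bar, grouped by role; filled points passed an adjusted p of 0.05 in limma and the dotted line is the median of all tested genes, 0.16. Mgst1, at 3.01, lies farthest to the right, 6 of 10 transferases are filled, and Osgin1 and Prdx6 are the filled points on the left. Among the filled transferases, Mgst2 reached the mean needed for a test only through the KIRA6 libraries.

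Nfe2l2 mRNA rose with KIRA6, and Keap1 did not pass the test. Nfe2l2 (chromosome 2, 75505857 to 75534985, minus strand, GRCm39) stood at 15.4, 15.2 and 20.9 FPKM in the vehicle libraries and at 23.6, 26.0 and 33.1 FPKM in the KIRA6 libraries. The groups did not overlap, and library 3 was the highest in each. The log2 fold change was 0.67 ± 0.19 (SE, n = 3 and 3, limma adjusted p = 0.0466). This call lay close to the threshold and was lost in 11 of 20 settings. Among them were median-ratio scaling (log2 fold change 0.49, limma adjusted p = 0.113) and 5 of the 6 fits without 1 library. Without both libraries that stood apart the log2 fold change was 0.92 (limma adjusted p = 0.000941). Vehicle library 3 was the highest of its group and KIRA6 library 1 the lowest of its own, so leaving both out could only raise the difference. Over all settings the adjusted p of Nfe2l2 ran from 7.41e-07 to 0.163. Keap1, which encodes the adaptor that marks NRF2 for ubiquitin transfer, was at 16.5, 17.4 and 17.8 FPKM in the vehicle libraries and at 22.9, 21.1 and 21.1 FPKM in the KIRA6 libraries. Its groups did not overlap either, yet its log2 fold change of 0.32 ± 0.12 missed the threshold (limma adjusted p = 0.0931). The ratio of Nfe2l2 to Keap1 in a library ran from 0.872 to 1.17 with vehicle and from 1.03 to 1.57 with KIRA6, so the groups overlapped.

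The antioxidant response element has the core TGACNNNGC. It was searched on both strands in the 250 bases before each RefSeq start site (GRCm38.p6), for which 31 of the 38 members had a window. Hmox1, Gclc, Gsr, Abcc1, Slc48a1, Gsta4 and Prdx6 had no window and were not searched. At least 1 match was present in 7 of the 31 members (22.6%): Nfe2l2, Gclm, Txnrd1, Gstm5, Mgst1, Prdx1 and Sod1. Of all 27025 genes with RefSeq windows, 11.5% had a match in such a window. The windows are shown for Nfe2l2 itself, for Mgst1, the member with the largest increase, and for Gclm and Prdx1, classical targets that did not pass the test, with the match in capitals and each sequence written 5′ to 3′ in the gene's sense. A match in letters is a description of the sequence and no measure of binding.
Nfe2l2, chr2:75704664-75704913, minus strand: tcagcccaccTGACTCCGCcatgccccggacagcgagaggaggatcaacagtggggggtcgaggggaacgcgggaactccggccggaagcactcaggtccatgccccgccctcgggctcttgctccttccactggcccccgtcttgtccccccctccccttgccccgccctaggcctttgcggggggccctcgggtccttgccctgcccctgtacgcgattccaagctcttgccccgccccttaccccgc
Mgst1, chr6:138140277-138140526, plus strand: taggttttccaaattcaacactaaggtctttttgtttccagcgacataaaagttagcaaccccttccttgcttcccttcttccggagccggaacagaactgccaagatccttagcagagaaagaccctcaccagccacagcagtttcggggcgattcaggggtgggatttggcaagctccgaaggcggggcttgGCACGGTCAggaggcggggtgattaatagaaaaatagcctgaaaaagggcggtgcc
Gclm, chr3:122245307-122245556, plus strand: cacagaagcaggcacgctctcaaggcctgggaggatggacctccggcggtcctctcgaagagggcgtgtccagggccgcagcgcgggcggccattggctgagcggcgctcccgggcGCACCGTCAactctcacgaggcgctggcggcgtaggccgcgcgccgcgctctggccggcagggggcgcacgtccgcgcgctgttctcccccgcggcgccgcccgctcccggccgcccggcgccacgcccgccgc
Prdx1, chr4:116685349-116685598, plus strand: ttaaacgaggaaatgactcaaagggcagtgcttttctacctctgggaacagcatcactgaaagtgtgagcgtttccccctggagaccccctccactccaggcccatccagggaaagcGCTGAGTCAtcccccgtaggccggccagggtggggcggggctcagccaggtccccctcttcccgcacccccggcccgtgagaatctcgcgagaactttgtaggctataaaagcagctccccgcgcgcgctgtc

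The matches began 240 bases before the start site in Nfe2l2, 56 in Mgst1, 134 in Gclm and 133 in Prdx1. That of Nfe2l2 was in the gene's sense, and the other three read on the opposite strand. The members with a match did not share a direction of change: Nfe2l2 and Mgst1 rose, while Gclm, Gstm5, Prdx1, Sod1 and Txnrd1 were not called, the last with a log2 fold change of −0.47.

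The 4 NRF2 targets that rose were Hmox1, Blvrb, Ftl1 and Me1. Hmox1 encodes heme oxygenase 1, which opens the heme ring and frees iron. It stood at 4.49, 4.08 and 4.33 FPKM in the vehicle libraries and at 13.4, 10.7 and 8.14 FPKM in the KIRA6 libraries, well apart, with a wider spread under KIRA6. Its log2 fold change was 1.20 ± 0.20 (SE, n = 3 and 3, limma adjusted p = 0.00709). Blvrb, biliverdin reductase B, reduces flavins and some forms of biliverdin. It rose from 1.94, 1.5 and 1.47 FPKM to 3.92, 3.41 and 3.02 FPKM, with no overlap (log2 fold change 0.89 ± 0.17, limma adjusted p = 0.0116). That call was lost in 3 of 19 settings, with adjusted p-values up to 0.123. Slc48a1, a heme transporter of endosomes and lysosomes, was at 21.8 to 32.6 FPKM with vehicle and 24.5 to 29.4 FPKM with KIRA6. It differed by 0.02 ± 0.18 on the log2 scale (limma adjusted p = 0.966), with overlapping groups, and by −0.17 under median-ratio scaling.

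The subunits of ferritin, the iron storage shell, differed in their calls: the light chain rose and the heavy chain did not pass the test. Ftl1, the light chain, was the most abundant member, at 1831, 1873 and 2090 FPKM with vehicle and 3593, 3968 and 3355 FPKM with KIRA6, a log2 fold change of 0.91 ± 0.14 (SE, n = 3 and 3, limma adjusted p = 0.00629). Fth1, the heavy chain with ferroxidase activity, was at 667, 657 and 836 FPKM with vehicle and at 551, 741 and 612 FPKM with KIRA6, so that its groups overlapped (log2 fold change −0.18 ± 0.18, limma adjusted p = 0.501). Within a library the FPKM of the light chain was 2.74, 2.85 and 2.50 times that of the heavy chain with vehicle. With KIRA6 it was 6.53, 5.35 and 5.48 times. These ratios rest on exonic lengths of 1340 bases for Ftl1 and 3469 for Fth1. Estimated fragments with vehicle were 44672, 41409 and 52038 for Ftl1 and 42137, 37627 and 53878 for Fth1. The excess of light chain with vehicle thus depends on those lengths, while the change of the ratio between groups does not. Ftl1 shares near-identical sequence with Ftl1-ps1, which itself moved from 13.1 ± 1.4 to 25.7 ± 0.4 FPKM (SD, n = 3 each), so reads may have been divided between them and the level of Ftl1 is uncertain.

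The quinone, glutathione synthesis and thioredoxin reductase genes gave no call. Nqo1, the quinone reductase that often serves as a marker of NRF2 activity, was at 19.95, 21.4 and 10.1 FPKM with vehicle and at 48.4, 31.9 and 25.3 FPKM with KIRA6. Every KIRA6 library was above every vehicle library, but the spread within groups was wide and the log2 fold change of 1.04 ± 0.35 missed the threshold (limma adjusted p = 0.0742). Without Vehicle library 3, its lowest, and KIRA6 library 1, its highest, the difference was 0.45 (limma adjusted p = 0.0225, and 9.5e-05 to 0.175 over all settings). Gclc and Gclm encode the catalytic and the modifier subunit of glutamate-cysteine ligase, the first step of glutathione synthesis. Gclm was at 11.6, 11.2 and 13.2 FPKM with vehicle and at 13.7, 14.6 and 17.0 FPKM with KIRA6 (log2 fold change 0.32 ± 0.14, limma adjusted p = 0.155), and Gclc, at 12.7 to 14.8 FPKM with vehicle and 14.0 to 18.2 FPKM with KIRA6, differed by 0.18 ± 0.15 (limma adjusted p = 0.411). The interval of 1 SE around each is below a doubling, and their ratio within a library overlapped between groups.

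Glutathione reductase and thioredoxin reductase, which recycle the pools that reduce peroxides at the cost of NADPH, pointed in opposite directions without either being called. Gsr was at 62.5, 61.9 and 38.8 FPKM with vehicle and at 87.9, 57.6 and 61.8 FPKM with KIRA6, overlapping (log2 fold change 0.35 ± 0.25, limma adjusted p = 0.362). Txnrd1 was at 48.7, 50.8 and 41.9 FPKM with vehicle and at 38.7, 30.1 and 33.1 FPKM with KIRA6. Its groups did not overlap, and its log2 fold change of −0.47 ± 0.15 had a limma adjusted p of 0.0666. Median-ratio scaling gave Txnrd1 a log2 fold change of −0.66 (limma adjusted p = 0.0273), and it was called lower in 8 of 20 settings, whose adjusted p ran from 5.64e-07 to 0.226. In each library the ratio of Gsr to Txnrd1 was 1.28, 1.22 and 0.927 with vehicle and 2.27, 1.92 and 1.87 with KIRA6.

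Of the other targets, 1 rose and 1 fell. Me1, the cytosolic malic enzyme that makes NADPH, stood at 15.6, 15.0 and 17.7 FPKM with vehicle and at 23.2, 22.7 and 29.6 FPKM with KIRA6 (log2 fold change 0.62 ± 0.16, limma adjusted p = 0.0296). Its groups did not overlap, but the call was lost in 9 of 20 settings, median-ratio scaling (adjusted p = 0.0805) and 5 of the 6 fits without 1 library among them, with adjusted p-values up to 0.122. Osgin1, an oxidative stress-induced growth inhibitor, went the other way, from 3.47, 3.69 and 5.23 FPKM to 1.56, 1.81 and 1.09 FPKM. Every KIRA6 library was below every vehicle library, with a log2 fold change of −1.22 ± 0.22 (SE, n = 3 and 3, limma adjusted p = 0.0099). Srxn1, sulfiredoxin, which restores overoxidized peroxiredoxins, was at 16.4 to 25.5 FPKM with vehicle and 23.2 to 33.9 FPKM with KIRA6 (log2 fold change 0.32 ± 0.23, limma adjusted p = 0.359). Abcc1, an exporter of glutathione conjugates, was at 5.17 to 9.74 FPKM and 2.86 to 5.30 FPKM (log2 fold change −0.62 ± 0.30, limma adjusted p = 0.189), and the groups of both genes overlapped. Cbr3, a carbonyl reductase, was at 0 in 4 of 6 libraries and had 3 fragments at most, so no difference was detectable at this depth.

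**Figure D2:**
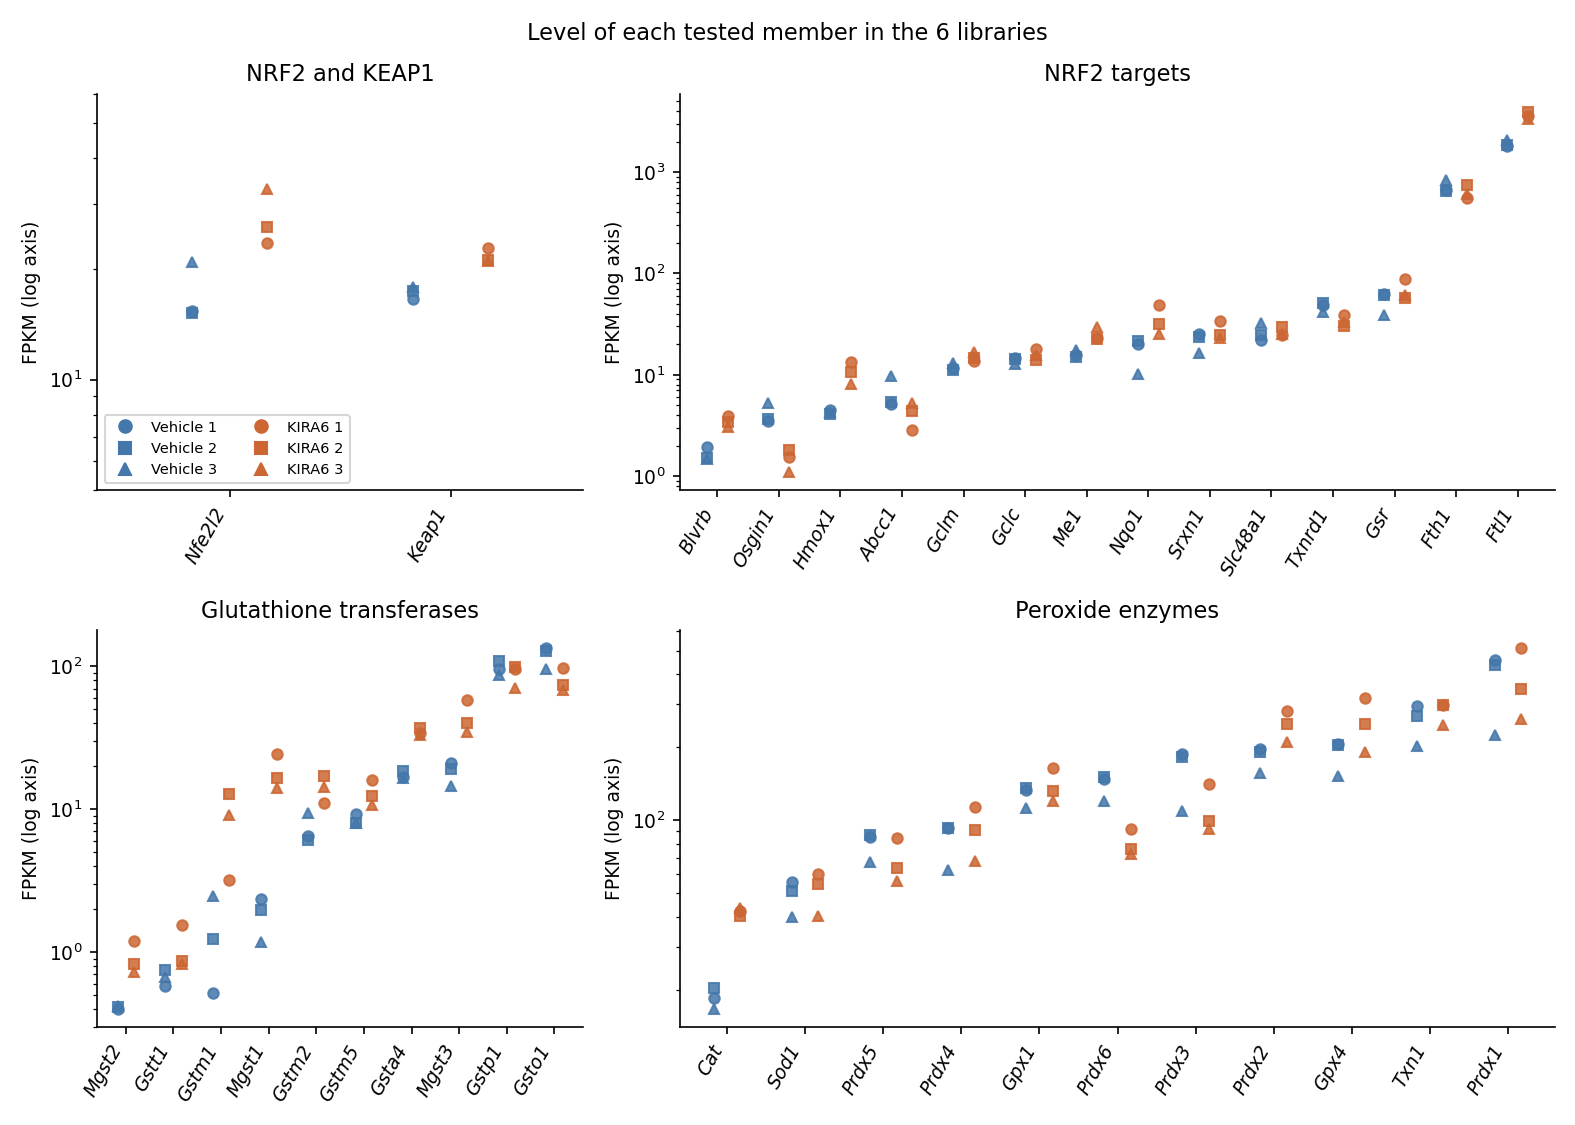
FPKM on log axes of each tested member in the 6 libraries, by role, with blue for vehicle, orange for KIRA6 and 1 symbol for each replicate number. The colours separate for Hmox1, Ftl1, Mgst1, Mgst3, Gsta4 and Cat, and overlap for Fth1, Gstp1, Prdx1 and Sod1.

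Among the glutathione transferases, the 3 membrane proteins of the MAPEG family, Mgst1, Mgst2 and Mgst3, rose. Mgst1 (chromosome 6, 138117314 to 138133753, plus strand, GRCm39) encodes microsomal glutathione transferase 1, which also reduces lipid hydroperoxides. It was at 2.35, 1.96 and 1.18 FPKM with vehicle and at 24.3, 16.6 and 14.0 FPKM with KIRA6. The lowest KIRA6 library was well above the highest vehicle library, and the group means of 1.83 ± 0.60 and 18.3 ± 5.4 FPKM (SD, n = 3 each) differed 9.99-fold. The log2 fold change of 3.01 ± 0.28 (limma adjusted p = 0.00122) was the 8th highest of 11778 tested genes, and 2.57 without the libraries that stood apart.

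Mgst3, which conjugates glutathione and reduces lipid peroxides in the same membranes, was at 21.2, 19.0 and 14.5 FPKM with vehicle and at 57.8, 40.1 and 34.9 FPKM with KIRA6. The log2 difference came to 1.24 ± 0.23 (SE, n = 3 and 3, limma adjusted p = 0.0119), and the groups did not overlap. Without the 2 libraries that stood apart the difference was 0.88 (limma adjusted p = 0.000635, and at most 0.0495 over all settings). Mgst2 was low, at 0.40, 0.41 and 0.42 FPKM with vehicle and at 1.20, 0.83 and 0.73 FPKM with KIRA6. It passed the filter on low values only through the KIRA6 libraries, and its call (log2 fold change 0.63 ± 0.17, limma adjusted p = 0.0415) was lost in 11 of 19 settings, among them all 6 fits without 1 library. Together the 3 membrane transferases summed to 24.0, 21.4 and 16.1 FPKM with vehicle and to 83.3, 57.5 and 49.7 FPKM with KIRA6.

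Of the 7 cytosolic transferases 3 rose, Gsta4, Gstm1 and Gstm2. Gsta4, the alpha-class enzyme with a preference for 4-hydroxynonenal, a product of lipid peroxidation, was at 16.9, 18.6 and 16.6 FPKM with vehicle and at 34.0, 37.1 and 33.4 FPKM with KIRA6. The libraries of each group lay close together, and the log2 fold change of 0.98 ± 0.12 held its call in every setting run (limma adjusted p = 0.00294 here and up to 0.0236). The mu-class genes Gstm1, Gstm2 and Gstm5 lie between 107803137 and 107925289 on chromosome 3 (GRCm39). Gstm2 was at 6.54, 6.06 and 9.36 FPKM with vehicle and at 11.02, 17.0 and 14.2 FPKM with KIRA6 (log2 fold change 0.90 ± 0.23, limma adjusted p = 0.0307), with no overlap. Gstm1 was at 0.52, 1.23 and 2.48 FPKM with vehicle and at 3.18, 12.8 and 9.13 FPKM with KIRA6, spread more than 3-fold within each group. Its log2 fold change was 2.16 ± 0.57 (limma adjusted p = 0.036).

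In Gstm1 and Gstm2 KIRA6 library 1 was the lowest of its group and Vehicle library 3 the highest of its own, the reverse of most members. Leaving both out could therefore only raise the differences. Without those 2 libraries Gstm1 had a log2 fold change of 3.09 and Gstm2 of 1.24 (limma adjusted p = 9.68e-05 and 0.000234). The call was lost in 7 of 19 settings for Gstm1 and in 8 of 20 for Gstm2, including 4 fits without 1 library for each and, for Gstm2, median-ratio scaling (adjusted p = 0.0618). Their highest adjusted p-values were 0.123 and 0.119. Gstm5 was at 9.33, 7.97 and 7.96 FPKM with vehicle and at 16.1, 12.4 and 10.7 FPKM with KIRA6, not overlapping but not called (log2 fold change 0.59 ± 0.18, limma adjusted p = 0.0569). The mu-class genes are close in sequence, so reads could have been divided among them and single values are uncertain.

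The 2 most abundant transferases were not called. Gsto1, an omega-class enzyme with thioltransferase activity, was at 134, 129 and 95.4 FPKM with vehicle and at 97.1, 74.8 and 68.6 FPKM with KIRA6. Vehicle library 3 lay within the KIRA6 range, and the log2 fold change of −0.57 ± 0.20 was not called (limma adjusted p = 0.0843). Gsto1 was called lower in 8 of 20 settings, with −0.76 under median-ratio scaling (limma adjusted p = 0.0426). Without the libraries that stood apart it differed by −0.87 (limma adjusted p = 0.000352). Vehicle library 3 was its lowest vehicle library and KIRA6 library 1 its highest KIRA6 library, so leaving both out could only deepen the decrease. Over all settings the limma adjusted p of Gsto1 was at most 0.241. Gstp1, the pi-class enzyme abundant in many epithelial tumours, was at 95.7, 109 and 87.7 FPKM with vehicle and at 96.8, 99.8 and 70.4 FPKM with KIRA6, with overlapping ranges (log2 fold change −0.14 ± 0.18, limma adjusted p = 0.628). A copy, Gstp-ps, at 14.3 ± 1.6 and 13.0 ± 1.8 FPKM (SD, n = 3 each), may share its reads. Gstt1, a theta-class enzyme, was low, at 0.58 to 0.75 FPKM with vehicle and 0.82 to 1.56 FPKM with KIRA6 (log2 fold change 0.41 ± 0.21, limma adjusted p = 0.213).

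The summed transferase level was 273 ± 32 FPKM with vehicle and 304 ± 44 FPKM with KIRA6 (SD, n = 3 each), and the groups overlapped. Gsto1 and Gstp1 together gave 79.9%, 80.9% and 77.5% of the summed FPKM in the vehicle libraries and 56.5%, 55.9% and 54.1% in the KIRA6 libraries. The 3 membrane enzymes gave 8.33%, 7.28% and 6.80% with vehicle and 24.3%, 18.4% and 19.3% with KIRA6. Neither share overlapped between groups, and an exact two-sided permutation of 3 against 3 libraries cannot go below a p of 0.1.

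**Figure D3:**
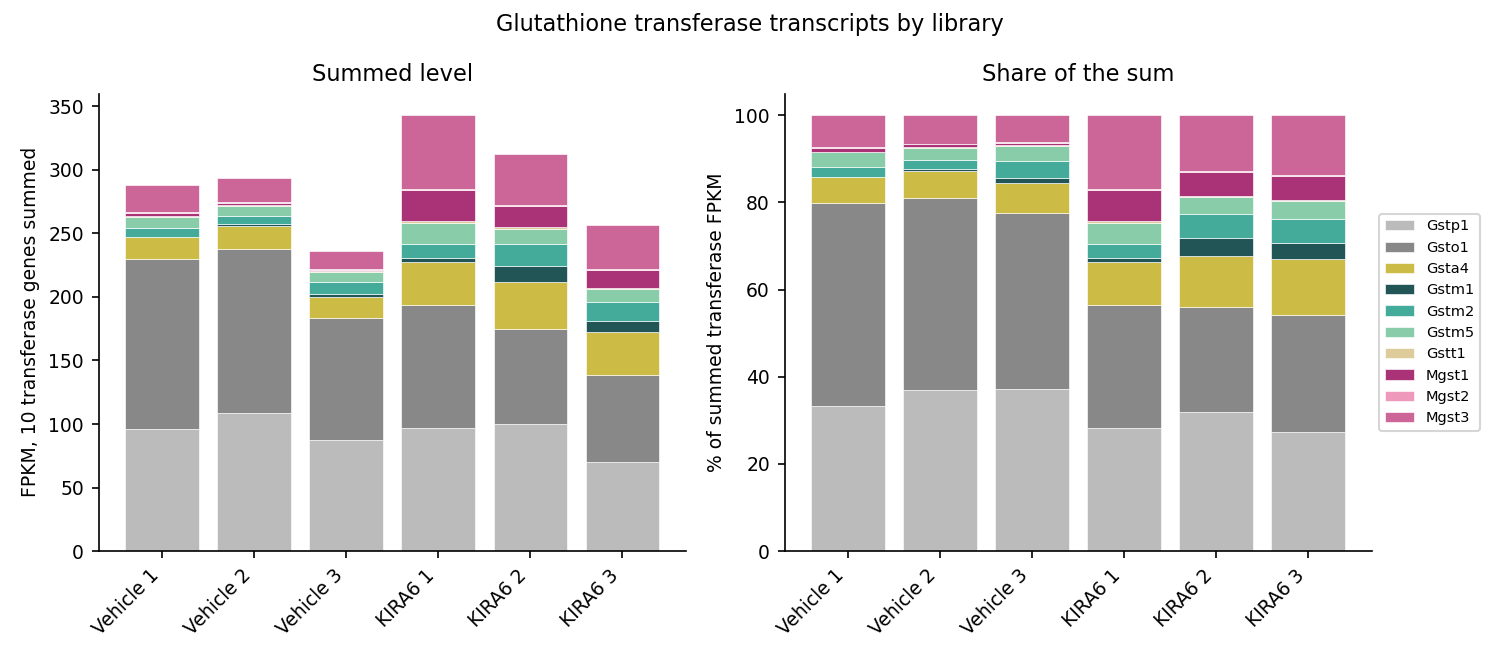
FPKM of the 10 glutathione transferase genes stacked for each library (left) and as a percentage of their sum (right). The grey blocks of Gsto1 and Gstp1 shrink from 77.5% or more with vehicle to 56.5% or less with KIRA6, while the red and pink blocks of the microsomal enzymes widen.

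Of the peroxide enzymes, catalase rose and peroxiredoxin 6 fell. Cat encodes the heme enzyme of peroxisomes that splits hydrogen peroxide without a reductant. It was at 18.5, 20.3 and 16.7 FPKM with vehicle and at 42.3, 40.1 and 43.4 FPKM with KIRA6, with small spread in both groups. Its log2 fold change was 1.16 ± 0.13 (SE, n = 3 and 3, limma adjusted p = 0.00204), and the highest adjusted p over 20 settings was 0.0171. Prdx6, the 1-cysteine peroxiredoxin that uses glutathione and reduces phospholipid hydroperoxides, was at 147, 151 and 119 FPKM with vehicle and at 92.2, 76.2 and 72.6 FPKM with KIRA6. The groups did not overlap (log2 fold change −0.79 ± 0.16, limma adjusted p = 0.0163). Leaving out Vehicle library 1, Vehicle library 2, KIRA6 library 2 or KIRA6 library 3 ended that call, with adjusted p-values of at most 0.0797.

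The other 5 peroxiredoxins were not called. Prdx1, the abundant cytosolic form, ranged from 225 to 456 FPKM with vehicle and from 261 to 511 FPKM with KIRA6, and its difference was 0.02 ± 0.35 (limma adjusted p = 0.98). Vehicle library 3 was its lowest vehicle library and KIRA6 library 1 its highest KIRA6 library, so leaving both out could only lower the difference. Without them Prdx1 differed by −0.56 (limma adjusted p = 0.0152, and 0.00223 to 0.99 over all settings). Prdx2, also cytosolic, was at 196, 191 and 157 FPKM with vehicle and at 283, 248 and 211 FPKM with KIRA6, not overlapping (log2 fold change 0.44 ± 0.17, limma adjusted p = 0.106), and may share reads with Prdx2-ps1, which was at 1.01 and 1.83 FPKM on average. Prdx3, the mitochondrial form, was at 188, 182 and 109 FPKM with vehicle and at 141, 98.98 and 92.1 FPKM with KIRA6, overlapping (log2 fold change −0.51 ± 0.27, limma adjusted p = 0.223). Prdx4 of the endoplasmic reticulum ranged over 62.3 to 93.0 and 67.8 to 113 FPKM, and Prdx5 over 67.2 to 86.5 and 56.2 to 84.3 FPKM. They differed by 0.13 ± 0.25 and −0.24 ± 0.20 (limma adjusted p = 0.755 and 0.433).

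The summed peroxiredoxin level was 1015 ± 238 FPKM with vehicle and 971 ± 235 FPKM with KIRA6 (SD, n = 3 each), with overlapping libraries. Prdx6 gave 12.7%, 13.3% and 16.1% of that sum with vehicle and 7.53%, 8.22% and 9.55% with KIRA6. Prdx2 gave 16.7% to 21.2% with vehicle and 23.1% to 27.7% with KIRA6, and Prdx3 gave 14.7% to 16.1% and 10.7% to 12.1%. Each of these 3 shares was apart between groups. In the same direction, the ratio of Prdx2 to Prdx3 was 1.05, 1.05 and 1.44 with vehicle and 2.002, 2.51 and 2.29 with KIRA6.

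The glutathione peroxidases, superoxide dismutase 1 and thioredoxin were not called. Gpx4, which reduces lipid hydroperoxides in membranes and restrains ferroptosis, was at 206, 204 and 153 FPKM with vehicle and at 320, 249 and 191 FPKM with KIRA6 (log2 fold change 0.41 ± 0.23, limma adjusted p = 0.244). The groups overlapped, and Gpx4-ps2, at 55.5 ± 9.0 and 77.1 ± 22.2 FPKM (SD, n = 3 each), may share reads with it. Gpx1, the cytosolic glutathione peroxidase, was at 113 to 136 FPKM with vehicle and 120 to 164 FPKM with KIRA6 and differed by 0.12 ± 0.17 (limma adjusted p = 0.668). Sod1, which turns superoxide into hydrogen peroxide, was at 39.9 to 55.5 and 40.4 to 59.9 FPKM and differed by 0.07 ± 0.20 (limma adjusted p = 0.835). Txn1, which reduces peroxiredoxins, was at 203 to 295 and 246 to 299 FPKM and differed by 0.15 ± 0.19 (limma adjusted p = 0.616). Gpx1, Sod1, Txn1, Prdx1 and Prdx4 turned slightly negative under median-ratio scaling. The ratio of Cat to Gpx1 in a library was 0.139, 0.149 and 0.148 with vehicle and 0.258, 0.305 and 0.362 with KIRA6.

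**Figure D4:**
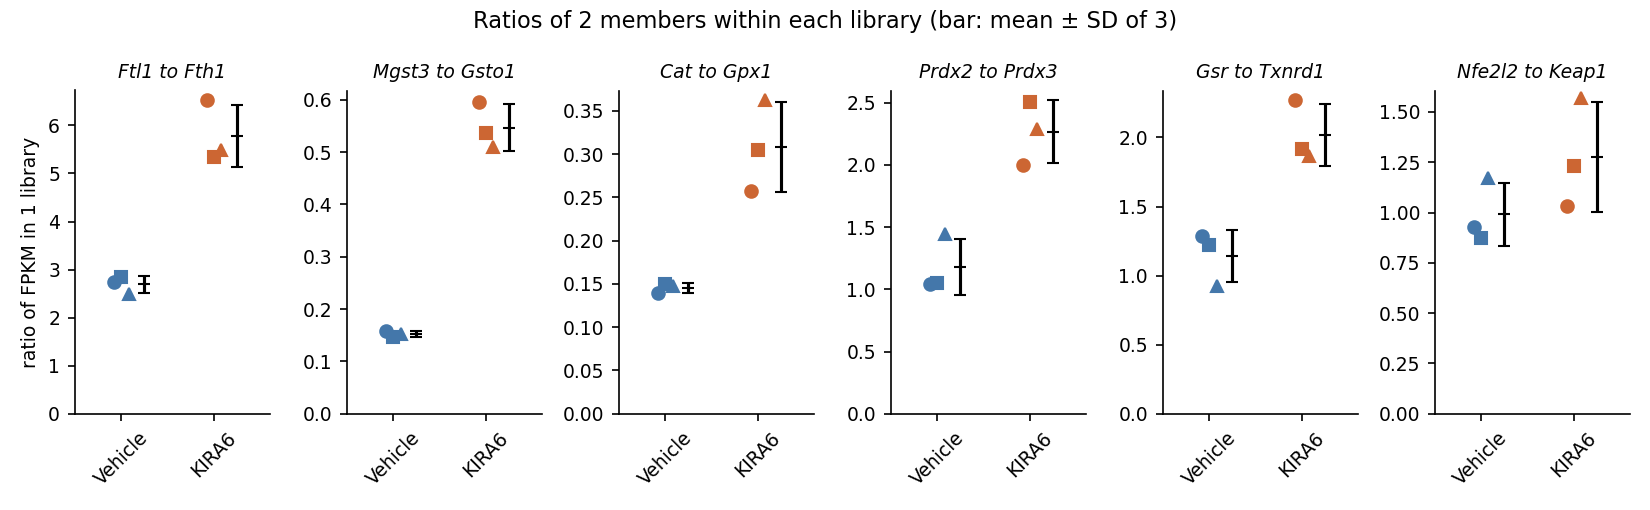
Ratio of the FPKM of 2 members within each library for vehicle (blue) and KIRA6 (orange), each panel on its own axis from 0, with the mean ± SD of 3 as a black bar. The groups are apart in 5 of the panels, such as Ftl1 to Fth1 at 2.50 to 2.85 against 5.35 to 6.53, and overlap for Nfe2l2 to Keap1.

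Of 9 such ratios computed, 7 did not overlap between groups, among them Mgst3 to Gsto1 at 0.158, 0.147 and 0.152 with vehicle and 0.595, 0.537 and 0.509 with KIRA6. The pairs were chosen with the values known, so their number is a description. A ratio within a library does not depend on the scaling between libraries, but its size depends on the exonic lengths of the genes.

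Vehicle library 3 and KIRA6 library 1 often lay at an end of their groups, over all tested genes as well as among the members. Vehicle library 3 had the lowest level of its group in 23 of 37 tested members (62.2%, against 49.5% of all tested genes), and KIRA6 library 1 had the highest of its group in 23 (62.2%, against 39.6%). The other way round, Vehicle library 3 was the highest in 12 members (32.4%, against 40.3%) and KIRA6 library 1 the lowest in 7 (18.9%, against 42.1%). The members with their lowest vehicle level in library 3 had a median exonic length of 2106 bases, and those with their highest there had 3586 bases. Over all tested genes these medians were 3485 and 5082 bases. The part of gene length in the differences above was not tested.

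Of 16 listed regulators of NRF2 outside the 38 genes 15 were tested, 3 were called higher and 2 lower, beside 15.6% higher and 7.98% lower over all tested genes. Sqstm1, the p62 receptor of autophagy that binds KEAP1, rose from 111 ± 11 to 321 ± 29 FPKM (SD, n = 3 each), or by 1.52 ± 0.15 on the log2 scale (limma adjusted p = 0.00139). Nfe2l1, a relative of NRF2, rose by 0.72 ± 0.15 and Btrc, an adaptor of an NRF2 ubiquitin ligase, by 0.63 ± 0.14. The small MAF genes Maff and Mafk, which encode partners of NRF2 on DNA, fell by 1.58 and 1.04 on the log2 scale, from 10.2 ± 1.2 to 3.08 ± 0.47 FPKM and from 10.2 ± 0.5 to 4.72 ± 0.79 FPKM. Mafg differed by −0.26 and was not called.

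Of 35 further genes of glutathione, thioredoxin and NADPH metabolism 27 were tested, 10 were called higher and 4 lower (15.6% and 7.98% over all tested genes). Txnip, an inhibitor of thioredoxin, rose from 0.93 ± 0.31 to 7.07 ± 1.31 FPKM (SD, n = 3 each), and the sestrins Sesn1, Sesn2 and Sesn3 were also called higher, Sesn2 having passed the filter on low values only through the KIRA6 libraries. The NADPH-producing genes Idh1 and G6pdx rose by 1.72 ± 0.24 and 0.69 ± 0.13 on the log2 scale. Chac1 and Chac2, which break down glutathione, rose by 1.22 ± 0.21 and 0.95 ± 0.16, and Msrb1 and Aifm2 were called higher too. The 4 genes called lower encode mitochondrial proteins: Txn2 fell by 0.62, Txnrd2 by 0.71, Glrx5 by 0.62 and Sod2 by 0.58 on the log2 scale. Slc7a11, the cystine importer and a known NRF2 target, was at 0.07 to 0.10 FPKM with vehicle and 0.21 to 0.23 FPKM with KIRA6, too low to be tested.

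Of 52 further transferase, conjugation, heme and iron genes 29 were tested, 10 were called higher and 2 lower, where all tested genes had 15.6% and 7.98%. Ephx1, Aldh3a1 and Ptgr1, enzymes that act on epoxides, aldehydes and reactive alkenals, rose by 1.94 ± 0.15, 1.91 ± 0.15 and 1.91 ± 0.27 on the log2 scale. Gstt3, Abcc5, Akr1b10, Cbr1, Cbr4 and Fech were also called higher. The iron exporter Slc40a1 rose from 0.13 ± 0.02 to 2.53 ± 0.39 FPKM (SD, n = 3 each), and passed the filter on low values only through the KIRA6 libraries. The iron importers Tfrc and Slc11a2 fell by 1.17 and 0.74 on the log2 scale. In Tfrc, the transferrin receptor, the vehicle libraries stood at 88.8, 81.0 and 43.1 FPKM and the KIRA6 libraries at 31.9, 29.8 and 27.9 FPKM.

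**Figure D5:**
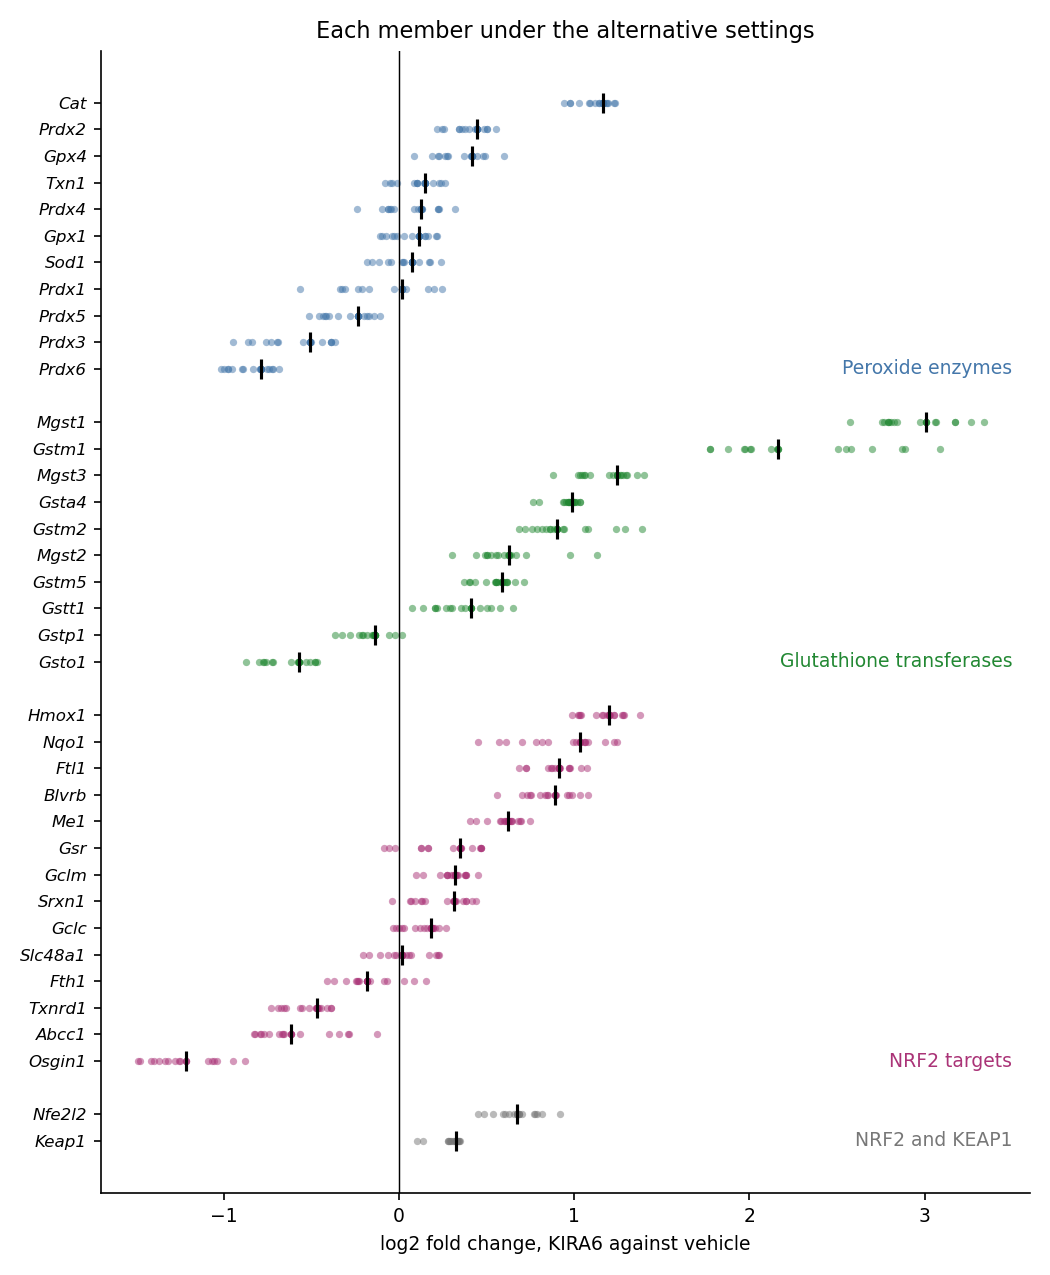
Log2 fold change of each tested member in the reported fit (black tick) and under up to 20 alternative settings (dots), by role. Hmox1, Ftl1, Gsta4, Mgst1, Mgst3 and Cat stay to the right of 0 and Osgin1 to the left throughout, while Prdx1, Gpx1, Sod1 and Slc48a1 straddle 0.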

How the data were processed

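Polyadenylated RNA of 6 libraries of 4T1 cells was sequenced with strand information kept, per the labels' protocols. Trimming with cutadapt 1.9.1, alignment software HISAT2 2.2.1, HTSeq 0.6.1 and DESeq2 1.34.0 are listed in the submitters' processing notes, together with the build GRCm39. How they were set, for strand and for reads that map to several places, is not given in the sources used here. Per gene, FPKM with 2 decimals were deposited by the authors, with exonic lengths and GRCm39 coordinates. Multiplied by length, these FPKM had an equal sum in each library, so they are relative to the fragments assigned to genes. The depth (16498100 to 21348750 fragments) was recovered from the steps between low values, which all came out within 0.1 of a whole number. The recovered fragments served limma-voom, an alternative, and a floor of 3 fragments, which covers counting error only.

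With limma 3.58.1 (R 4.3.3), log2(FPKM + 0.5) was modelled by group alone for 11778 genes whose mean reached 0.5 FPKM, with an intensity trend, robust empirical Bayes and two-sided tests, adjusted by Benjamini-Hochberg. This scale understates the change of low genes. Of the marker lists, 1 gene is not reported here. The fit was tested on simulated data with normal noise and 50 changed genes at each fold. It recovered 4% of 1.5-fold, 40% of 2-fold, 76% of 4-fold and 88% of 8-fold changes, with 5 false calls among 109. A gene that was not called may therefore still have changed. The simulation changed far fewer genes than the 2783 called in the data and drew its noise independently for each gene. Its rates of recovery and of false calls need not hold for the real libraries. The 38 members, their role groups and the further lists were chosen with earlier results of these data known. Every member is named, with the called genes of the further lists. Other genes named (the copies of members, Mafg, Slc7a11) were added after their values were seen. Alternatives changed the pseudocount, filter, scaling, empirical Bayes settings, weights and libraries. Sequences came from the RefSeq promoter table (GRCm38.p6), whose coordinates were not combined with those of GRCm39.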

Additional observations from a re-analysis of the deposited data

How the results depend on the processing

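The 37 tested members were refitted under 20 settings. Of these, 2 arose from changes made after counts had been seen. The setting without both libraries that stood apart also depended on the data, since those libraries were picked out by their values. Of 735 differences, 586 kept their direction and side of the threshold. With the direction kept, 53 lost a call and 50 gained one, and 46 changed sign. All changes of sign fell on 11 members that were not called in the reported fit. Some of the 46 passed the threshold with the new sign: Prdx1 was lower without both libraries that stood apart. With array weights by REML (below), Prdx1 was called lower and Fth1 higher. The depth of these libraries left Cbr3 untestable.

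The number of genes called, 2783, became 1465 with a mean of at least 5 FPKM, 7553 with array quality weights, 6592 without both libraries that stood apart, and 1174 to 3423 without 1 library. Members called higher, 12, became 7 with no filter on low values and 6 to 11 without 1 library. Members called lower, 2, became 1 with a mean of at least 5 FPKM, 4 with median-ratio scaling and with TPM, 6 with array weights, 7 without both libraries and 1 to 5 without 1 library. In the same settings, calls higher over all genes went from 1843 to 1600 with no filter and to 788 to 2095 without 1 library. Calls lower over all genes went from 940 to 690 with a mean of at least 5 FPKM. They were 1440 with median-ratio scaling, 1068 with TPM, 2810 with array weights, 2375 without both libraries and 386 to 1328 without 1 library. The cause of these changes was not tested.

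In all 2 settings were replaced after their counts had been seen, and both versions are given. Array weights by REML, limma's default, stopped before convergence and called 10003 genes, 6046 higher and 3957 lower. Of the members, 21 were then higher and 9 lower. Weights computed gene by gene took their place. Median-ratio factors were first taken over all genes above 0 in every library, which gave 1209 genes higher and 1559 lower, and 4 members lower; factors over tested genes gave 1287 and 1440.

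Whether the replicate numbers mark pairs of libraries was not settled. Residuals of same-numbered libraries correlated at 0.762, −0.469 and 0.738, and those of different numbers at −0.842 to 0.713. The residuals of 3 libraries sum to 0 within a group, so these correlations depend on each other and cannot decide it. A fit with the replicate block called 4423 genes, 2883 higher and 1540 lower, and had 16 members higher and 6 lower.

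Changes of sign were as follows. With median-ratio scaling (first version in brackets) Slc48a1 was at −0.171 (−0.208), Txn1 at −0.041 (−0.079), Prdx1 at −0.172 (−0.21), Prdx4 at −0.061 (−0.099), Gpx1 at −0.074 (−0.111), Sod1 at −0.115 (−0.153) and Gclc at 0.001 (−0.035). With TPM Slc48a1 was at −0.029 and Prdx1 at −0.027. With array weights (REML in brackets) Gsr was at −0.025 (−0.084), Fth1 at 0.082 (0.151), Prdx1 at −0.338 (−0.329), Prdx4 at −0.051 (−0.029) and Gpx1 at −0.027 (−0.042), and Gclc was at −0.016 by REML. Without both libraries Srxn1 was at −0.042, Gsr at −0.06, Fth1 at 0.025, Txn1 at −0.053, Prdx1 at −0.564, Prdx4 at −0.238, Gpx1 at −0.097 and Sod1 at −0.182. Without 1 library Slc48a1 ran from −0.111 to 0.172, Gstp1 from −0.231 to 0.019, Txn1 from −0.01 to 0.26, Prdx1 from −0.311 to 0.247, Prdx4 from −0.063 to 0.321, Gpx1 from −0.012 to 0.212 and Sod1 from −0.066 to 0.236.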
